A study of Mus musculus with 48 samples.

Results

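The peaks described here lie within 50 kb of the spans of 10 genes that act in stem cell signalling, chromatin and gene control in mouse embryonic stem cells: Dnmt3b, Dnmt3l, Otx2, Fgf4, Lefty1, Utf1, Tdgf1, Lin28a, Jarid2 and Mycn. They are 10 of 21887 protein-coding genes of the RefSeq annotation given for GRCm38.p6, which mm10 corresponds to, and their windows cover 1298 kb together. All 10 symbols were found in that table. Peaks were taken from 22 lists. The 10 windows together held 2 to 31 FLAG peaks in a list, 103 to 325 SMC3 peaks, and 177 (treated) or 297 (untreated) CTCF antibody peaks.

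The cells were E14Tg2a embryonic stem cells (129/Ola), grown in serum with leukemia inhibitory factor, the GSK3 inhibitor CHIR99021 and the MEK inhibitor PD0325901. In every group endogenous CTCF carried an auxin-inducible degron, and a stable doxycycline-inducible Ctcf transgene was present, either with 1 substitution or WT. The substitutions were R339Q, R342C, S354F and K365T, the pair R377C and R377H at the same arginine, and Q418R, R448Q and H455R. FLAG (transgene CTCF) and SMC3 (cohesin) were mapped by ChIPmentation in the 9 mutants and in WT after 2 days of 500 µM indole-3-acetic acid (IAA), which triggers CTCF degradation, plus 1 µg/ml doxycycline. A CTCF antibody was used in WT cells with this treatment and in untreated WT cells, where IAA and doxycycline were both left out. Each genotype is 1 cell line, and each list pools replicates 1 and 2 of a group, so every group gives 1 value and no test between groups was possible. The lists hold no expression data, so the stem cell label was not checked against marker genes.

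CTCF is a zinc-finger protein that binds DNA and halts loop-extruding cohesin, the ring complex of which SMC3 is a core subunit, so that loops are anchored at CTCF sites. The 10 genes are well known in embryonic stem cells. Fgf4 encodes the ligand that drives ERK signalling toward lineage commitment, Tdgf1 (Cripto) the Nodal co-receptor, and Lefty1 a secreted inhibitor of Nodal. Dnmt3b encodes a de novo DNA methyltransferase, Dnmt3l its catalytically inactive cofactor, and Jarid2 a subunit that recruits Polycomb repressive complex 2. Utf1 encodes a chromatin-bound regulator of bivalent genes, Otx2 a homeobox factor of the primed state, Mycn a Myc family factor and Lin28a an RNA-binding protein that blocks maturation of let-7.

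WT FLAG peaks stood near 7 of the 10 genes and none stood near Otx2, Jarid2 and Mycn; over all protein-coding genes 63.3% had a WT FLAG peak within 50 kb. Mutant FLAG peaks were found near 8 of the 10 genes in R339Q (63.1% of all genes), 6 in R342C (62.7%), 9 in S354F (73.9%), 6 in K365T (57.6%), 9 in R377C (74.2%), 6 in R377H (61.2%), 10 in Q418R (76.2%), 5 in R448Q (64.7%) and 1 in H455R (20.1%). The 1 gene in H455R was Fgf4. With 10 genes, these counts do not stand clear of the background of their lists. SMC3 peaks were present near all 10 genes in every genotype. Of all genes, 77.6% had an SMC3 peak within 50 kb in R339Q, 83.9% in R342C, 77.4% in S354F, 80.1% in R377C and 80.7% in K365T. In R377H 81.7% did, 71.1% in Q418R, 85.5% in R448Q and 80.0% in H455R, against 80.2% in WT. CTCF antibody peaks were present near all 10 in treated (88.6% of all genes) and untreated WT cells (90.1%).

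The 20 WT FLAG peaks comprised 5 around Fgf4, 4 each around Dnmt3b, Lefty1 and Utf1, and 1 each around Dnmt3l, Tdgf1 and Lin28a. Each peak has a deposited caller score, given below as its percentile within its own list, where 0 is the weakest and 100 the strongest peak; percentiles of different lists are not on 1 scale. The WT FLAG percentiles ran from 1.47 to 94.6 with a median of 40.8, so 12 of the 20 peaks were in the weaker part of the list and 8 at or above its median. All 20 overlapped a CTCF antibody peak in treated cells (91.1% over the whole WT FLAG list) and in untreated cells (91.2%), and 18 overlapped a WT SMC3 peak (81.2%). The treated CTCF antibody percentiles at these sites had a median of 94.8 and a minimum of 86.9, and the untreated ones a median of 98.1 and a minimum of 87.4. The sites are thus weak to strong in FLAG while all of them rank high with the CTCF antibody.

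**Figure D1:**
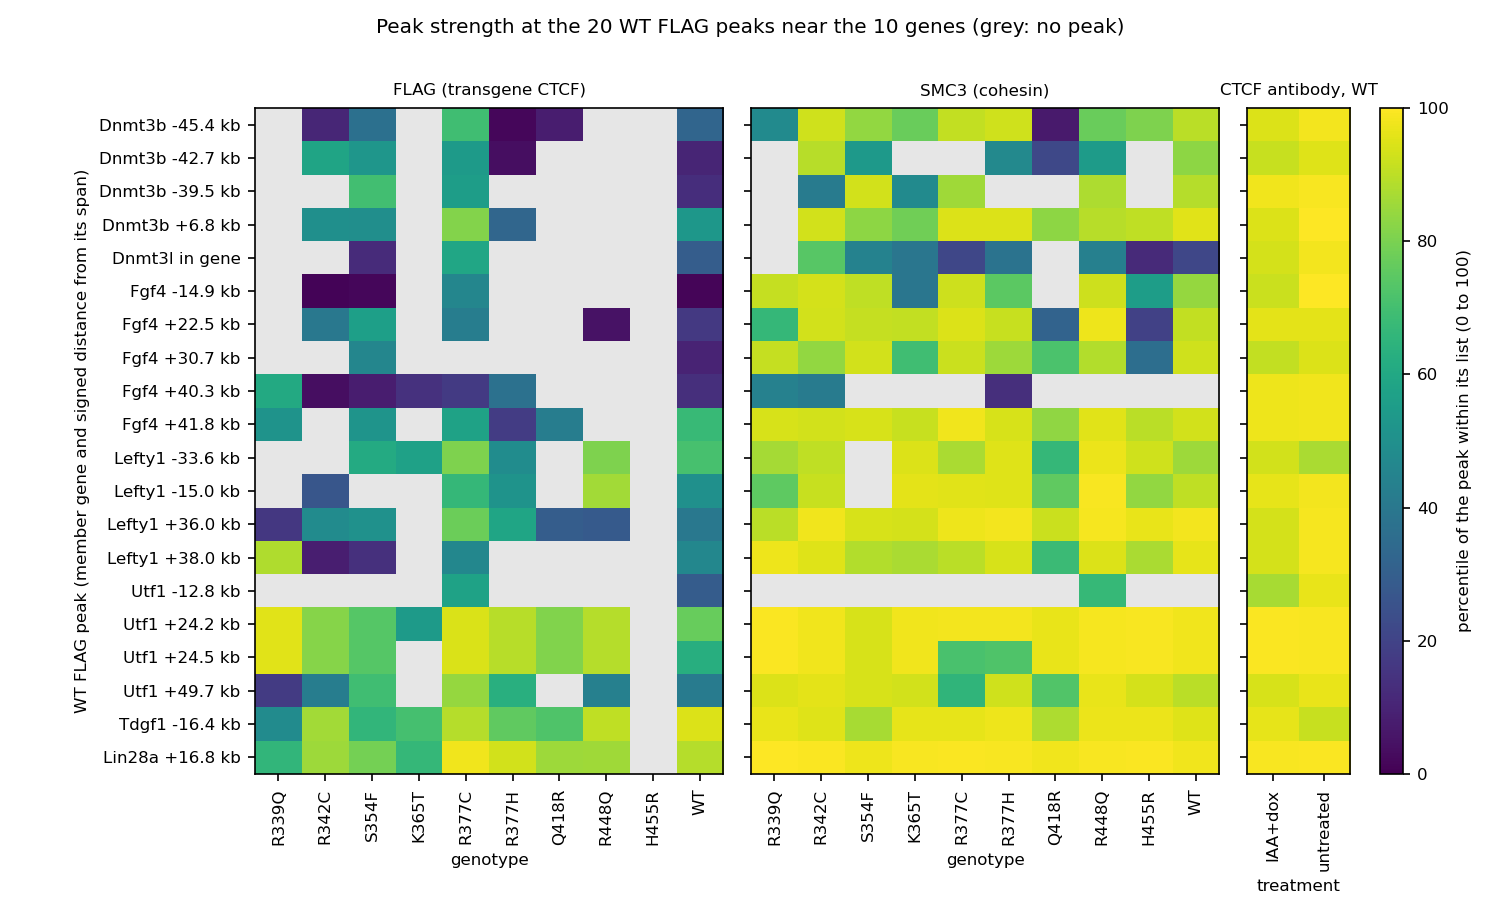
Percentile of the overlapping peak (colour, 0 to 100 within its own list; grey where no peak was listed) at the 20 WT FLAG sites, by genotype for FLAG and SMC3 and by treatment for the CTCF antibody. A negative distance lies toward the start of the chromosome. The H455R column of FLAG is grey at all 20 sites, while 11 sites have SMC3 in all 10 genotypes.

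Promoters were examined through the RefSeq sequences of GRCm38.p6, 250 bases before to 50 after each start, which gave 15 promoters for 9 of the 10 genes, all but Lefty1. None of the 15 overlapped a FLAG peak of any genotype, where 0.731% (H455R) to 5.01% (Q418R) of all 32851 promoters did. WT SMC3 peaks overlapped 3 of the 15, at Fgf4, Tdgf1 and Jarid2, against 15.0% of all promoters, and R448Q SMC3 peaks overlapped 8, against 38.3%. Peaks of the CTCF antibody overlapped 1, at Utf1, in treated (14.7%) and untreated cells (20.9%). The CTCF core, spelled CC, 3 bases of any kind, AG, 2 bases of any kind, GGC and searched on both strands, was in none of the 15 and in 8.61% of all promoters. SMC3 lay on the Fgf4 promoter in 8 genotypes, all but R339Q and Q418R, and on the upstream Jarid2 promoter in 7. The promoters shown carry peaks named in the text. Those of Utf1, Fgf4 and Jarid2 hold promoter peaks given above. That of Aire lies inside the Dnmt3l span and overlaps the only WT FLAG peak within a span of the 10 genes. That of Gm16201, beside Utf1, lies wholly in a FLAG peak of R339Q and holds the core. Capitals mark the bases in the treated CTCF antibody peak (Utf1, chr7:139943606-139943905, plus strand), in the WT SMC3 peak (Fgf4, chr7:144861136-144861435, plus strand, and Jarid2, chr13:44730524-44730823, plus strand), in the WT FLAG peak (Aire, chr10:78043561-78043860, minus strand) and the core itself (Gm16201, chr7:139949748-139950047, plus strand).
Utf1: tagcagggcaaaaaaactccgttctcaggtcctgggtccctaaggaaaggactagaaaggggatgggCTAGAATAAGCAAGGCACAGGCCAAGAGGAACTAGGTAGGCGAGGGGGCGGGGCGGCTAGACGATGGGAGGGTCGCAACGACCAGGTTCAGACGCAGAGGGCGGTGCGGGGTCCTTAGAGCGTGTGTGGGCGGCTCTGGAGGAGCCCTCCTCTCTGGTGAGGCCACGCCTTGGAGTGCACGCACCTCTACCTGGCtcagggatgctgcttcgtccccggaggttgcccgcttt
Fgf4: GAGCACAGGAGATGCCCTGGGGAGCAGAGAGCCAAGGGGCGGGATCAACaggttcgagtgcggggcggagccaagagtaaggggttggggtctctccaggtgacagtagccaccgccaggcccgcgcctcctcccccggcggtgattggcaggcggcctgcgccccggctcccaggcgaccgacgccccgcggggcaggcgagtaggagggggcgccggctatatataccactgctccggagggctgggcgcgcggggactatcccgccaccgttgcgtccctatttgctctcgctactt
Jarid2: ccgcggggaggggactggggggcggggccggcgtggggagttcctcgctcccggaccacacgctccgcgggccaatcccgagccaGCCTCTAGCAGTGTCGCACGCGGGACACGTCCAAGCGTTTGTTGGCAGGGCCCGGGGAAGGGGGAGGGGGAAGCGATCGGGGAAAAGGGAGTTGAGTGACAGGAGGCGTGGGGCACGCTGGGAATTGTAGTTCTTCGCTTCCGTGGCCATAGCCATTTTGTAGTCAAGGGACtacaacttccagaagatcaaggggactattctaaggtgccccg
Aire: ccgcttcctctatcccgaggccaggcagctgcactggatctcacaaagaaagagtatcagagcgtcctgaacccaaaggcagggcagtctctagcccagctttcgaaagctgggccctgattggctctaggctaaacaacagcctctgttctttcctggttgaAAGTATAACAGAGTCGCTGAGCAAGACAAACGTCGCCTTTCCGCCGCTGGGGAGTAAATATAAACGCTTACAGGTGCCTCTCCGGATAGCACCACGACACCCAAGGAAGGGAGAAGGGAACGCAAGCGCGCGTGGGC
Gm16201: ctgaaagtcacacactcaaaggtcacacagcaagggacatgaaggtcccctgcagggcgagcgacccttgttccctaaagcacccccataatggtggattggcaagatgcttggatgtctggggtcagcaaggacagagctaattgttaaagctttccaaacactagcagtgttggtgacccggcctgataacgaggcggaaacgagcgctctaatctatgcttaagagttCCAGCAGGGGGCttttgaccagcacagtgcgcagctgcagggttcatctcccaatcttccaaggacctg
The core in the Gm16201 promoter starts at base 232, counted from the 5′ end, and the other 4 sequences hold none on either strand.

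Among the chromatin genes, Dnmt3b had 3 WT FLAG peaks upstream of its span, 39473 to 45412 bp away and nearest to Commd7, and 1 peak 6.80 kb beyond the other end at chr2:153694533-153694795. The last was kept in R342C (percentile 49.8), S354F (49.4), R377C (81.6) and R377H (33.2), against 52.8 in WT, and was missing in R339Q, K365T, Q418R, R448Q and H455R. SMC3 was nevertheless listed there in 8 mutants, at percentiles of 78.4 (K365T) to 94.8 (R377H), against 95.5 in WT; R339Q had neither FLAG nor SMC3. This site was the strongest WT SMC3 peak near Dnmt3b and also its strongest untreated CTCF antibody peak, at percentile 99.9. Of the 4 Dnmt3b sites, R339Q, K365T, R448Q and H455R kept none and S354F and R377C all 4. Outside the WT FLAG list, 2 sites near Dnmt3b were in 2 mutants each, and the higher by mean percentile, chr2:153668865-153669043 inside the gene, was listed in S354F (65.5) and R377C (12.0). R339Q had 2 other FLAG peaks in the window, while K365T, R448Q and H455R had no FLAG peak near Dnmt3b at all.

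Dnmt3l had a single WT FLAG peak, at chr10:78043452-78043697, inside its span and over the start of Aire, which encodes a transcription factor of thymic tolerance. It was of modest rank, at percentile 29.5 in WT, and was listed in S354F at 12.3 and R377C at 59.2 and in no other mutant. SMC3 was listed at this site in R342C (74.1), S354F (44.4), K365T (39.3), R377C (21.5), R377H (38.2), R448Q (43.5) and H455R (11.8), against 21.2 in WT, and not in R339Q and Q418R. Both CTCF antibody peaks there ranked high, at 93.4 in treated and 98.1 in untreated cells. Dnmt3l had the fewest SMC3 peaks per length in WT, 1.65 per 100 kb of window; the strongest, at percentile 56.8, lay 3779 bp outside the span at a treated CTCF antibody peak and recurred in 3 mutants. Outside the WT FLAG list Dnmt3l had 2 sites in 1 mutant each, the higher at percentile 55.9 in Q418R, in Pfkl.

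Jarid2 had no WT FLAG peak in its 291 kb window, the nearest lying 86.5 kb from the span. Mutant FLAG peaks absent from the WT list were nonetheless found at 9 sites, 8 of them inside the gene and all 9 at a CTCF antibody peak. Q418R had 6 of these sites, R339Q 3, R377C 3 and S354F 2, and the other mutants none. The site in most mutants, chr13:44733446-44733826, lay in the gene and was listed in S354F (percentile 24.9), R377C (30.9) and Q418R (14.9). It coincided with the strongest CTCF antibody peak near Jarid2, at percentile 93.6 in treated and 96.3 in untreated cells, and had SMC3 in all 10 genotypes. The strongest WT SMC3 peak near Jarid2, at percentile 85.2, lay 42349 bp outside the span, away from treated CTCF antibody and FLAG peaks, and recurred in all 9 mutants.

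Of the Nodal pathway genes, Lefty1 had 4 WT FLAG peaks, the nearest 15.0 kb from the span. The peak at chr1:180974446-180974740, in Tmem63a, was kept in 7 mutants, all but K365T and H455R. Its FLAG percentile was 16.3 in R339Q, 48.3 in R342C, 50.4 in S354F, 77.5 in R377C, 58.8 in R377H, 29.6 in Q418R and 28.2 in R448Q, against 39.9 in WT. SMC3 there ranked between 89.7 (R339Q) and 98.6 (R448Q) in the 9 mutants, K365T (93.4) and H455R (96.5) included, against 98.2 in WT, the strongest WT SMC3 peak near Lefty1. A different pattern was seen at chr1:180901291-180901440, 2184 bp from Lefty2, the paralogous Nodal inhibitor, where FLAG was listed in K365T (57.3) and R448Q (80.6) as well as S354F, R377C and R377H, against 70.8 in WT. That site is the only one of the 20 where K365T had FLAG and R342C had none.

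Q418R had 4 FLAG peaks near Lefty1 that no other list of FLAG holds, and these were picked out after their values were seen. They lay 102 bp outside the Lefty1 span at percentile 83.0, inside Lefty1 at 39.8, 23111 bp away at 92.4 and in Tmem63a at 66.9. All but that in Tmem63a overlapped a CTCF antibody peak. The outside site shared by most mutants, chr1:180987818-180988165, lay between Tmem63a and Ephx1, 1391 bp from Ephx1. It was listed in R342C (8.40), S354F (29.8), R377C (23.4) and Q418R (6.78), all in the weaker part of those lists.

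Tdgf1 had 1 WT FLAG peak, at chr9:110922655-110923178, 16.4 kb from the span and the strongest of the 20. Its percentile was 48.2 in R339Q, 86.1 in R342C, 65.9 in S354F, 70.6 in K365T, 89.0 in R377C, 75.5 in R377H, 72.3 in Q418R and 90.5 in R448Q, against 94.6 in WT, and H455R had no peak. SMC3 was listed in all 9 mutants, from 86.8 (S354F) to 97.3 (R377H) and at 97.0 in H455R, against 95.1 in WT. In the same window lay chr9:110890319-110890834 in Als2cl. Counting only mutant peaks that overlap no WT FLAG peak, it was the only site of 52 near the 10 genes found in 5 mutants. It was listed in R339Q (37.6), R342C (17.8), S354F (26.9), R377C (65.2) and R448Q (20.1), lay at a treated CTCF antibody peak of percentile 89.4, and had no SMC3 peak in any genotype.

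Fgf4 lies in a cluster with Fgf3 and Fgf15, and its 5 WT FLAG peaks lay around these neighbours and not at Fgf4 itself: 1 was 2929 bp from Fgf3 and 4 were 473 to 8629 bp from Fgf15. The 4 peaks other than chr7:144907016-144907385 were weak in WT, at percentiles of 1.47 to 16.7. The exception stood at 67.5 in WT and was kept in R339Q (51.2), S354F (51.7), R377C (57.6), R377H (17.9) and Q418R (42.5). It had SMC3 in all 9 mutants, at 83.5 (Q418R) to 97.7 (R377C), against 93.2 in WT, where it was the strongest SMC3 peak near Fgf4. The neighbouring site chr7:144905573-144905672 was 1 of 2 sites among the 20 without WT SMC3; SMC3 was listed there only in R339Q (44.0), R342C (41.7) and R377H (13.3), while FLAG was listed in 6 mutants. At chr7:144895917-144896059, FLAG was kept in S354F alone (45.9, against 9.94 in WT), and SMC3 was listed in all 9 mutants.

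The only 2 FLAG peaks that H455R had near any of the 10 genes were both in Gm26793, close to Fgf15 and outside the WT FLAG list. The site chr7:144894591-144895014 was listed in S354F (49.7), R377C (33.0), R448Q (44.3) and H455R (44.1). The site chr7:144894268-144894422 was listed in S354F (3.70), R448Q (33.2) and H455R (65.8). Both overlapped the same CTCF antibody peak and both had WT SMC3, at 85.6 and 82.0. Fgf4 also had the densest SMC3 of the 10 genes in every genotype, 25.0 (Q418R) to 51.0 (R339Q) peaks per 100 kb in the mutants, against 32.7 in WT.

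**Figure D2:**
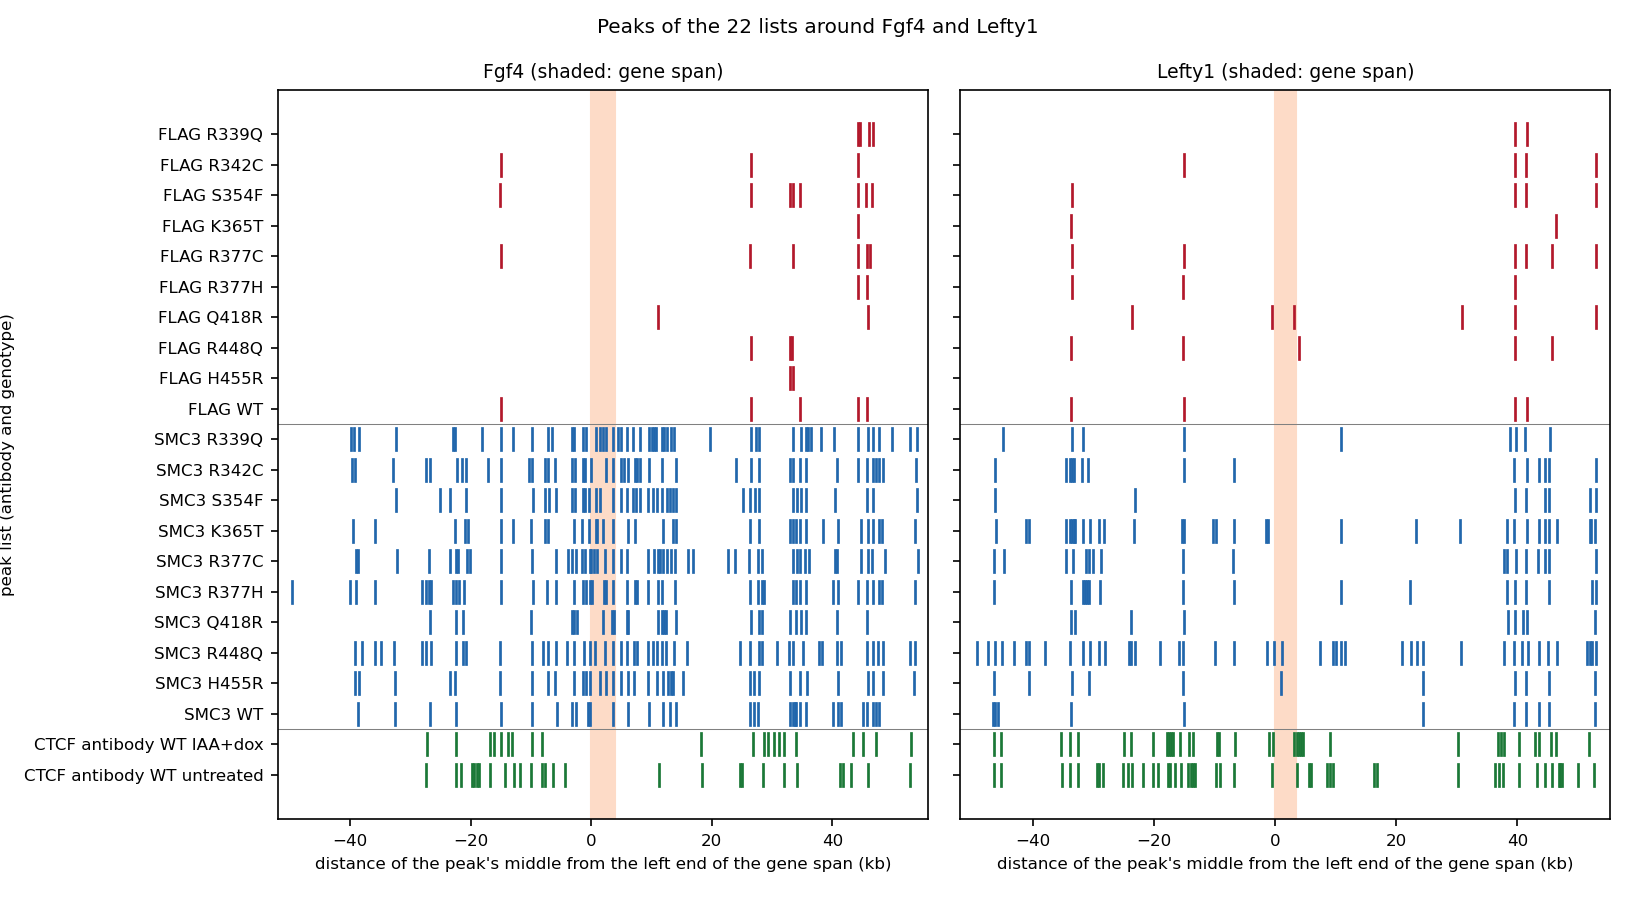
Positions of all peaks of the 22 lists (1 line per list, 1 tick per peak) around Fgf4 and Lefty1, in kb from the left end of the gene span (shaded). FLAG ticks are few and lie away from both spans, apart from Q418R ticks at Lefty1 and 1 of R448Q just outside Lefty1, whereas SMC3 ticks are dense at Fgf4 in every genotype.

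Utf1 had 4 WT FLAG peaks, and a pair of them, chr7:139969304-139969541 and chr7:139969639-139969903, lay side by side in Gm16201 and within 1 CTCF antibody peak. At the site nearer to Utf1, FLAG percentiles were 95.6 in R339Q, 81.7 in R342C, 73.5 in S354F, 54.6 in K365T, 94.5 in R377C, 89.1 in R377H, 80.9 in Q418R and 88.8 in R448Q, against 76.8 in WT. The other site lacked FLAG in K365T and H455R; in the remaining 7 mutants a single FLAG peak spanned the pair, so it is not 2 separate observations. SMC3 at the nearer site ranked from 94.0 (S354F) to 99.2 (R339Q and H455R), against 97.7 in WT. At the opposite extreme was chr7:139930872-139931027 in Kndc1, kept in R377C alone (57.6, against 29.1 in WT), with SMC3 in R448Q alone (67.1) and none in WT. R339Q had 6 FLAG peaks near Utf1, the most of any genotype, and 3 of them were in no other FLAG list, including that over the Gm16201 promoter shown above (percentile 57.7), where SMC3 was listed in 6 mutants. Mutant peaks overlapping no WT FLAG peak were listed for 2 mutants at only 1 site near Utf1, chr7:139970846-139971114. It was weak in R339Q (5.74) and R377C (1.39). A further R342C peak outside the WT list, at chr7:139970003-139970144 (24.4), also lay under FLAG peaks of R339Q, S354F, R377C, R377H, Q418R and R448Q that reach the WT pair.

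The single WT FLAG peak near Lin28a, at chr4:134035999-134036355, lay 16.8 kb from the span with no nearer gene. FLAG percentiles were 65.9 in R339Q, 85.4 in R342C, 79.1 in S354F, 66.7 in K365T, 98.0 in R377C, 93.1 in R377H, 85.5 in Q418R and 85.6 in R448Q, against 88.9 in WT, and H455R had no peak. SMC3 was among the strongest peaks of every list, at 97.5 (S354F) to 99.7 (R339Q) in the mutants, 99.5 in H455R, against 97.8 in WT. The Lin28a, Tdgf1 and nearer Gm16201 sites are the 3 of 20 kept in 8 mutants, and no site was kept in all 9; over the whole WT list 31.2% of peaks were kept in at least 8. A Q418R peak in Dhdds, 19756 bp from Lin28a and in no other FLAG list, stood at percentile 98.7 and had a Q418R SMC3 peak at 92.2; the other 2 FLAG sites near Lin28a outside the WT list were also in 1 mutant each.

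Otx2 and Mycn had no WT FLAG peak in their windows. The only FLAG peak of any genotype near Otx2 was a weak Q418R peak (percentile 10.4), 41740 bp away in Otx2os1. Otx2 had 1.80 CTCF antibody peaks per 100 kb in treated cells, the fewest of the 10 genes, and 8.12 in untreated cells, where Mycn had fewer (6.62). Its SMC3 density was nevertheless 7.22 (S354F and Q418R) to 23.5 (R377H and R448Q) peaks per 100 kb in the mutants, against 9.02 in WT. The strongest WT SMC3 peak near Otx2 lay inside the gene at percentile 71.0, had no treated CTCF antibody peak and no FLAG peak in any genotype, and recurred in 7 mutants, all but S354F and H455R.

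For Mycn, the nearest WT FLAG peak lay 67.6 kb away, but mutant FLAG peaks stood at 4 sites, all at CTCF antibody peaks. The site chr12:12926666-12926955, 9138 bp from the gene, was listed in R339Q (42.6), S354F (74.0) and R377C (51.0). The site chr12:12942313-12942827, 477 bp from the gene, was listed in S354F (47.8), K365T (60.7) and Q418R (44.9), and was the strongest treated CTCF antibody peak near Mycn, at 87.2. CTCF antibody peaks near Mycn numbered 7 in treated and 7 in untreated cells, the only gene of the 10 with equal numbers. The strongest WT SMC3 peak, 1384 bp outside Mycn at percentile 85.6, was away from treated CTCF antibody and FLAG peaks and recurred in all 9 mutants.

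Taking the 20 WT sites as a whole, FLAG was kept at 9 in R339Q, 45.0% (Wilson 95% interval 25.8 to 65.8) against 53.1% of all 15392 WT FLAG peaks. The share was 70.0% (48.1 to 85.5) in R342C against 72.2% over the whole list, 90.0% (69.9 to 97.2) in S354F against 86.2%, and 65.0% (43.3 to 81.9) in R377H against 71.8%. R377C kept 19 of 20 (interval 76.4 to 99.1), against 89.6%. In 3 mutants the interval at the 50 kb window lay below the share of the whole list. K365T kept 5, 25.0% (11.2 to 46.9) against 52.1%; Q418R kept 7, 35.0% (18.1 to 56.7) against 59.2%; and R448Q kept 9, 45.0% (25.8 to 65.8) against 75.2%. With a 100 kb window (36 sites) none of these 3 intervals did: K365T kept 38.9% (24.8 to 55.1), Q418R 50.0% (34.5 to 65.5) and R448Q 63.9% (47.6 to 77.5). H455R kept 0 of 20, which allows a share of up to 15.0%, against 10.5% over the list. These intervals cover counting error only, and neighbouring sites that share a CTCF antibody peak are not independent. The mean over the 9 mutants was 52.2% (SD 30.8) at the 20 sites and 63.3% over the list, with 7 mutants below their list and 2 above.

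WT strength moved with these shares. The 10 sites kept in at least 5 mutants had a median WT percentile of 65.2, and the 10 kept in fewer one of 22.9. Among the 12 sites in the weaker part of the WT list, R339Q kept 4 of 12 (39.0% over such peaks of the list), R342C 8 (53.6%), S354F 11 (76.2%), R377C 11 (80.7%), R377H 5 (54.4%) and H455R 0 (7.86%). Of the same 12, K365T kept 1 of 12 (31.7%), Q418R 2 of 12 (44.6%) and R448Q 3 of 12 (58.8%). Among the 8 stronger sites, R339Q kept 5 of 8 (67.3%), R342C 6 (90.8%), S354F 7 (96.2%), R377C 8 (98.6%), R377H 8 (89.3%) and H455R 0 (13.1%). Of these 8, K365T kept 4 of 8 (72.5%), Q418R 5 of 8 (73.9%) and R448Q 6 of 8 (91.6%). K365T, Q418R and R448Q were thus below their lists in both strata of the 50 kb window, as were R339Q and H455R. With 8 sites only the size of the difference can be given. A site was kept in a median of 4.5 mutants, against 6 over the list, and 4 of the 20 were kept in at most 2, against 13.0%. Under a reciprocal overlap of 50% the share of the 20 sites kept was 20.0% in R339Q, against 22.9% over the list under the same rule. It was 40.0% in S354F (53.0%), 45.0% in R377C (35.1%) and 30.0% in R377H (53.5%).

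**Figure D3:**
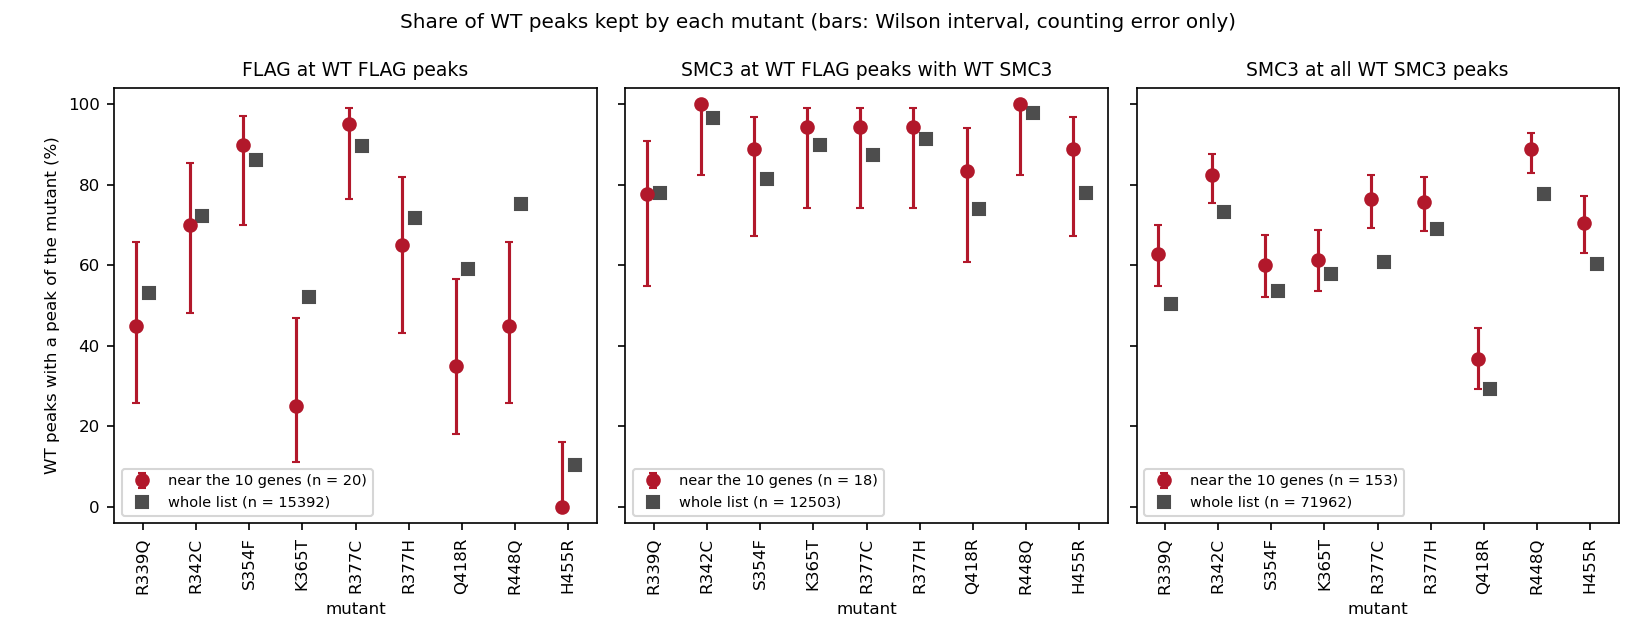
Share of WT peaks that overlap a peak of each mutant, near the 10 genes (red, with 95% Wilson interval) and over the whole list (grey squares), for FLAG at WT FLAG peaks, SMC3 at WT FLAG peaks with WT SMC3, and SMC3 at all WT SMC3 peaks. FLAG intervals near the 10 genes lie wholly below the list's share in K365T, Q418R and R448Q at this 50 kb window, though at 100 kb none of the 3 does. SMC3 shares at all WT SMC3 peaks lie above the list's share in all 9 mutants. Their intervals take in that share in S354F, K365T and R377H.

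SMC3 was kept at most of the 18 WT FLAG sites that had WT SMC3. The number was 14 of 18 in R339Q (78.0% over all such sites), 18 in R342C (96.6%), 16 in S354F (81.4%), 17 in K365T (89.9%), 17 in R377C (87.3%), 17 in R377H (91.3%), 15 in Q418R (74.1%), 18 in R448Q (97.9%) and 16 in H455R (77.9%). The mean was 91.4% (SD 7.41, n = 9 mutants) near the 10 genes and 86.0% over all such sites. Where the mutant had no FLAG peak at such a site, SMC3 was listed at 16 of 18 in H455R (76.2% of such sites over the whole list), 13 of 14 in K365T (77.9%), 9 of 9 in R448Q (91.7%), 8 of 11 in Q418R (46.7%) and 6 of 10 in R339Q (55.8%). It was listed at 5 of 6 in R377H (75.4%), 5 of 5 in R342C (87.6%), 1 of 1 in R377C (63.6%) and 0 of 1 in S354F (28.4%). These counts are too small to set the 10 genes apart from the list. Where FLAG was kept, SMC3 was kept too near the 10 genes, apart from 1 site each in S354F and R377C; over the list such sites had SMC3 in 84.4% (S354F) to 99.3% (R448Q).

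All WT SMC3 peaks, with or without CTCF, were then followed: 153 near the 10 genes and 71962 in the list. The share met by a mutant SMC3 peak was 62.7% in R339Q (50.5% over the whole list), 82.4% in R342C (73.3%), 60.1% in S354F (53.7%), 61.4% in K365T (57.8%) and 76.5% in R377C (60.7%). It was 75.8% in R377H (69.0%), 36.6% in Q418R (29.3%), 88.9% in R448Q (77.8%) and 70.6% in H455R (60.2%). The mean was 68.3% (SD 15.4, n = 9) against 59.1%, higher in 9 of 9 mutants, which share the WT list and so are not independent. The interval took in the list's share in S354F (52.2 to 67.5), K365T (53.5 to 68.8) and R377H (68.5 to 81.9). In Q418R its lower end was 29.4. At the 90 peaks away from WT FLAG and CTCF antibody peaks the mean was 66.5% (SD 18.0) against 49.8%; the list's own shares there ran from 14.5% (Q418R) to 70.1% (R448Q). At the 63 peaks with a CTCF antibody peak it was 70.9% (SD 13.4) against 69.1%, above the list in 7 mutants and below it in 2. CTCF antibody peaks met 41.2% (33.7 to 49.1) of the WT SMC3 peaks near the 10 genes and 47.8% of all. SMC3 list length moved with these shares, Q418R having the shortest list, 42030 peaks, and R448Q the longest, 153647; its part in them was not tested.

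Peak density was compared per 100 kb of window. For SMC3 near the 10 genes, the median was 7.86 (Q418R) to 26.1 (R448Q) peaks per 100 kb in the mutants, against 11.0 in WT; over all protein-coding genes it was 1.80 to 7.68 in the same mutants, against 3.53 in WT. The CTCF antibody peaks stood at 16.5 per 100 kb in treated and 27.8 in untreated cells, where all genes had 7.79 and 11.6. The WT FLAG median was close to that of all genes, 0.901 against 0.829. Over the 10 windows together WT FLAG stood at 1.54 per 100 kb. Mutant FLAG medians were 1.59 in R339Q (0.883 over all genes), 1.37 in R342C (0.835), 2.36 in S354F (1.43) and 0.901 in K365T (0.683). They were 2.23 in R377C (1.69), 1.37 in R377H (0.808), 1.99 in Q418R (1.67), 0.432 in R448Q (0.868) and 0 in H455R (0). The order of the 10 genes by WT SMC3 density ran from Fgf4 (32.7), Tdgf1 (18.8) and Utf1 (14.8) through Lin28a (12.1), Mycn (11.3), Lefty1 (10.6), Jarid2 (9.97) and Otx2 (9.02) to Dnmt3b (4.34) and Dnmt3l (1.65); with 1 list each, neighbours in this order cannot be told apart. Near Lefty1 the SMC3 density was 43.5 in R448Q and 31.9 in K365T, but 8.71 in R339Q and Q418R and 7.74 in S354F, against 10.6 in WT.

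**Figure D4:**
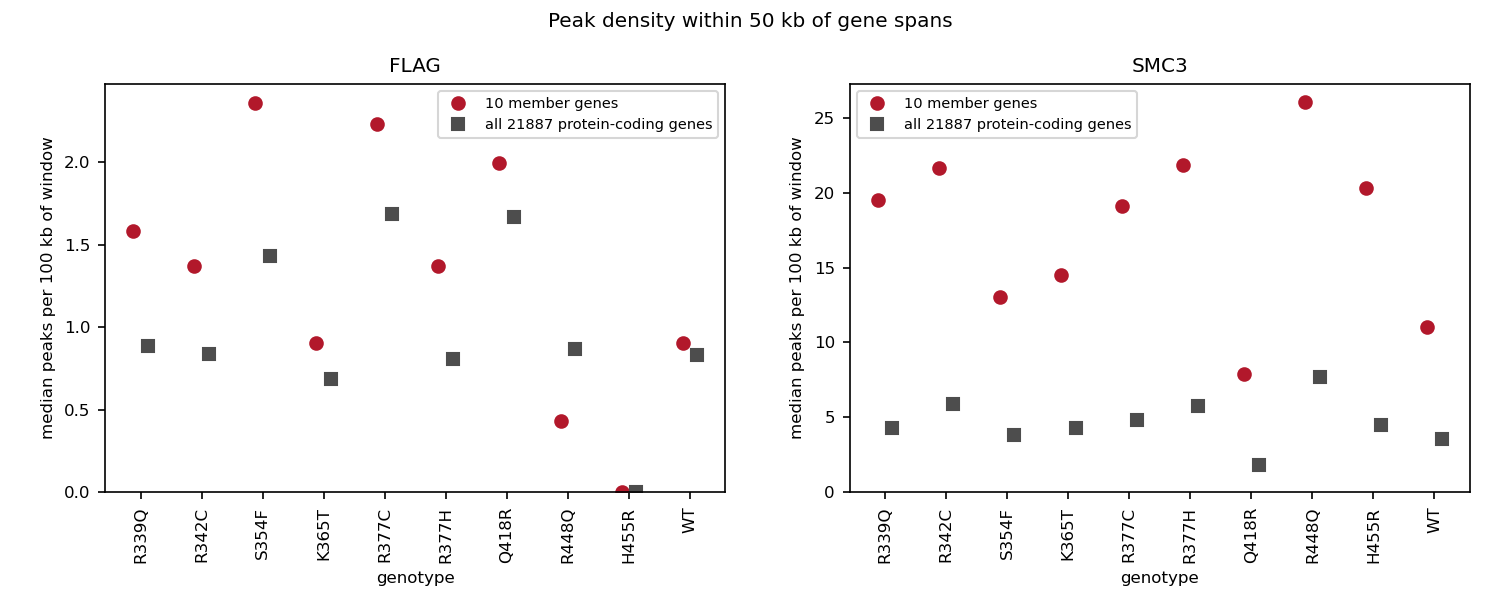
Median number of peaks per 100 kb of window for the 10 genes (circles) and for all 21887 protein-coding genes (squares), by genotype, for FLAG and SMC3. For SMC3 the 10 genes stand above all genes in all 10 lists, at 11.0 against 3.53 in WT.

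Outside the WT FLAG list, the mutants had FLAG peaks at 52 sites, with at least 1 near each of the 10 genes. Of these, 37 were in 1 mutant, 8 in 2, 4 in 3, 2 in 4 and 1 in 5, and 46 overlapped a CTCF antibody peak. Wider mutant peaks that also reach a WT FLAG peak are left out of these counts. Some of the 37 sites, such as chr7:139970003-139970144 near Utf1, therefore have FLAG in more mutants. Q418R accounted for 17 of the 37, at percentiles of 3.47 to 98.7 with a median of 38.8, and 8 of the 17 had a Q418R SMC3 peak. Of its 28 FLAG peaks, 22 were outside the WT list, 78.6% (60.5 to 89.8) against 70.2% over its whole list. The share of these at a CTCF antibody peak was 20 of 22, 90.9% (72.2 to 97.5), against 54.5% over the list. R377H had 1 of 13 outside (33.6% over its list), R342C 3 of 16 (33.0%), K365T 3 of 8 (39.0%), S354F 14 of 31 (45.8%), R448Q 6 of 14 (40.6%), R377C 13 of 31 (55.9%), R339Q 14 of 22 (57.4%) and H455R 2 of 2 (58.1%). The share of outside peaks at a CTCF antibody peak was above the list in 9 of 9 mutants, with a mean of 95.8% (SD 7.41) against 66.8%. This mean gives equal weight to R377H with 1 outside peak, H455R with 2, and R342C and K365T with 3 each, all at 100.0%. The mutants share sites and the CTCF antibody lists, so they are not independent. Only in Q418R and H455R (34.2 to 100.0 against 33.3%) did the interval lie above the list. Treated CTCF antibody peaks were also denser near the 10 genes, at a median of 16.5 per 100 kb against 7.79 for all genes. The part of this density was not tested.

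With the CTCF antibody, 177 peaks were found in treated and 297 in untreated WT cells. Of the treated peaks 171, 96.6% (92.8 to 98.4), had an untreated peak, against 91.7% over the list, and 18, 10.2% (6.53 to 15.5), had a WT FLAG peak, against 11.0%. Of the untreated peaks 146, 49.2% (43.5 to 54.8), were met by a treated peak, against 56.9% over the list. The share per gene ran from 2 of 9 near Otx2, 7 of 24 near Dnmt3l, 12 of 29 near Utf1, 17 of 41 near Jarid2, 13 of 28 near Fgf4, 19 of 40 near Dnmt3b and 20 of 39 near Lin28a to 29 of 47 near Lefty1, 22 of 33 near Tdgf1 and 5 of 7 near Mycn. Over the whole list, 17581 of 17582 untreated peaks of the top decile had a treated peak, as did 25 of 25 near the 10 genes. The strongest untreated peak of each of the 10 genes had one too, and all but that of Otx2 were in this decile. Those of Dnmt3b (percentile 99.9), Fgf4 (99.6), Lin28a (99.4), Utf1 (98.9), Tdgf1 (98.9), Lefty1 (98.7) and Dnmt3l (98.1) overlapped a WT FLAG peak, and those of Jarid2 (96.3), Mycn (92.9) and Otx2 (84.8) did not. The Tdgf1 peak reached past the window's edge, and its FLAG peak lies 51160 bp from the span, just outside the 50 kb limit, at WT percentile 67.2; just inside the limit was a Utf1 peak at 49660 bp, at percentile 41.7.

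Other genes of the same pathways were described through 29 names. Of these, 19 had a WT FLAG peak within 50 kb (63.3% of all genes): 5 of 9 chromatin genes, 7 of 8 Nodal pathway genes, 5 of 8 FGF pathway genes and 2 of 4 paralogues. Acvr1b, which encodes a Nodal and activin receptor, had the most sites, 6, followed by Fgf15 with 5, of which 4 are also in the Fgf4 window, and by Uhrf1, Lefty2 and Fgf8 with 3 each. At the 33 sites outside the windows of the 10 genes, FLAG was kept at 22 in R339Q, 26 in R342C, 31 in S354F, 18 in K365T, 33 in R377C, 28 in R377H, 19 in Q418R, 24 in R448Q and 2 in H455R. For K365T this is 54.5% (52.1% over the list), for Q418R 57.6% (59.2%) and for R448Q 72.7% (75.2%). It is 66.7% for R339Q (53.1%), 78.8% for R342C (72.2%) and 93.9% for S354F (86.2%). For R377C it is 100.0% (89.6%), for R377H 84.8% (71.8%) and for H455R 6.06% (10.5%). These members of the list of other genes include neighbours of the 10 genes, and no difference between the sets was tested.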

How the data were processed

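FLAG, SMC3 and CTCF antibody ChIPmentation peaks were analysed for 22 of the 24 groups of 2 replicates (48 samples) in the labels. Not analysed here were IgG and the FLAG group of untreated WT cells. The submitters' processing notes name Bowtie2, deepTools, MACS2, Trim Galore and mm10, with no version; their order and settings were not given. Each deposited list pools replicates 1 and 2 by its title, although library codes and replicate numbers in the peak names of several FLAG lists differ from it. The deposited score of the authors' peak caller (column 5) is of an unstated measure, so it was used only as a percentile within a list. Depth is unknown.

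Repeated intervals of a FLAG list (1 per summit) were merged with the highest score. A peak was called kept or shared where 1 bp or more overlapped. Genes within 50 kb were taken from the span in the RefSeq table of GRCm38.p6. Python 3.11.15, numpy 2.4.6, pandas 2.3.3, scipy 1.17.1 and matplotlib 3.10.9 were used; overlaps were checked against bedtools 2.31.1. Shares have 95% Wilson intervals, for counting error only; a share of 0 is given with the limit of 3 counts. No test could be made with 1 pooled list per group. The members, the lists of other genes and the rules were chosen with earlier results of these data known. All 20 WT FLAG sites were described or counted; of other peaks, per gene the site in most mutants outside the WT FLAG list (ties: the highest mean percentile), the strongest WT SMC3 and the strongest untreated CTCF antibody peak were named, and of the other pathway genes the 3 with most sites (ties named). Alternatives were other overlaps, windows and peak cutoffs.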

Additional observations from a re-analysis of the deposited data

How the results depend on the processing

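No paired analysis was possible because each list pools both replicates, and for the same reason no replicate could be left out. Of 218 alternative values, 157 stayed within their counting interval and 61 moved. Under other overlaps and peak cutoffs, whole-list shares were computed only for FLAG kept at WT FLAG sites. Whether the other measures still differ from their lists under those rules was not tested. Under a reciprocal overlap of 50%, FLAG kept at the WT sites was 20.0% in R339Q (22.9% over the list under the same rule). It was 40.0% in S354F (53.0%), 45.0% in R377C (35.1%) and 30.0% in R377H (53.5%). The FLAG share outside the WT list was then 81.8% in R339Q, 74.2% in S354F, 71.0% in R377C and 53.8% in R377H. SMC3 at WT FLAG sites with WT SMC3 (7 left) was 42.9% in R339Q and H455R and 57.1% in R342C, Q418R and R448Q. SMC3 at WT SMC3 peaks was 34.6% in R339Q and K365T, 45.1% in R342C, 37.9% in S354F, 41.2% in R377C and H455R, 38.6% in R377H, 13.7% in Q418R and 27.5% in R448Q. With a match within 500 bp the same measure was 78.4% in R339Q and K365T, 92.8% in R342C, 80.4% in S354F, 90.8% in R377C, 89.5% in R377H, 48.4% in Q418R, 94.1% in R448Q and 83.0% in H455R.

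With the upper 50% of each list, 8 WT FLAG sites were left. K365T kept 50.0% of them (51.6% over the list under the same rule), Q418R 50.0% (57.9%), R448Q 75.0% (76.9%) and R377C 100.0% (95.3%). SMC3 was then kept at 100.0% of these sites in K365T, R377C, R377H, Q418R and H455R, and at 65.2% (R377C) and 29.2% (Q418R) of WT SMC3 peaks. The FLAG share outside the WT list was 33.3% in R377H and 16.7% in R448Q. With equal numbers of top peaks (3855 FLAG, 42030 SMC3, 116973 CTCF antibody), SMC3 at WT SMC3 peaks was 72.2% in R342C, 61.9% in R377C, 67.0% in R377H, 50.5% in Q418R and 73.2% in R448Q. Untreated CTCF antibody peaks found in treated cells were 24.6% under the reciprocal overlap, 64.3% within 500 bp, 55.5% with the upper 50% and 67.3% with equal numbers. Genes with a WT FLAG peak were 3 with equal numbers and 2 with a 10 kb window. The share of all genes under these settings was not computed, so the counts have no background. In the 10 kb window, SMC3 at WT SMC3 peaks was 71.9% in R339Q, 90.6% in R342C and 78.1% in H455R, and the FLAG share outside the WT list 100.0% in R339Q and Q418R, 75.0% in S354F and 71.4% in R377C.

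With a 100 kb window (36 WT sites), all values stayed within the intervals of the 50 kb window, but FLAG kept was 38.9% in K365T, 50.0% in Q418R, 63.9% in R448Q and 8.33% in H455R, and the intervals of the first 3 no longer lay below their lists. In the upper 50% none did either, and under the reciprocal overlap those of R448Q and R377H did. With sites counted once per CTCF antibody peak (17, added after seeing the data), K365T had 29.4% (13.3 to 53.1) against 53.4% over the list counted the same way. WT FLAG sites limited to treated CTCF antibody peaks were the same 20. Leaving out each mutant in turn gave means of 46.9% to 58.8% for FLAG at WT FLAG sites, 90.3% to 93.1% for SMC3 there and 65.8% to 72.3% for SMC3 at WT SMC3 peaks. Among the alternatives, shares over fewer than 5 peaks (53 values) were not computed. With 3 WT FLAG sites left at equal numbers, R342C, R377C and R448Q kept 3, R377H 2, R339Q 1, and the other mutants 0. The causes of these moves were not tested. The number of sites, 20, and the unknown depth limit every share.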

Other observations

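SMC3 peaks absent from the WT list made up a large part of the mutant lists near the 10 genes. Their number was 175 of 276 in R339Q (63.4%, against 59.7% over its whole list), 164 of 279 in R342C (58.8%, against 56.1%), 112 of 205 in S354F (54.6%, against 52.2%), 91 of 185 in K365T (49.2%, against 52.6%) and 160 of 275 in R377C (58.2%, against 55.8%). It was 150 of 264 in R377H (56.8%, against 60.7%), 43 of 103 in Q418R (41.7%, against 45.6%), 219 of 325 in R448Q (67.4%, against 68.1%) and 138 of 240 in H455R (57.5%, against 56.2%). The shares near the 10 genes lay within a few percentage points of the whole lists and on either side of them. Of these peaks, 41 in R339Q overlapped a CTCF antibody peak of WT cells (23.4%, against 31.5% over its list), 53 in R342C (32.3%, against 28.2%), 32 in S354F (28.6%, against 35.2%), 33 in K365T (36.3%, against 30.3%) and 35 in R377C (21.9%, against 29.1%). The number was 36 in R377H (24.0%, against 24.7%), 16 in Q418R (37.2%, against 47.1%), 56 in R448Q (25.6%, against 25.4%) and 31 in H455R (22.5%, against 22.2%).

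Peak names of the SMC3 lists carry a tag of unstated meaning, b1 alone in R342C, K365T, R377H, R448Q, H455R and WT, and b2 or b3, alone or with b1, in R339Q, S354F, R377C and Q418R. In each of the 5 mutants tagged b1 alone, WT SMC3 peaks were kept more often near the 10 genes than over the whole list. The same held in the other 4. The whole-list share itself differed with the tag. It was 57.8% (K365T) to 77.8% (R448Q) in the mutants tagged b1 alone, as WT is. It was 50.5% in R339Q, 53.7% in S354F, 60.7% in R377C and 29.3% in Q418R, so only R377C of these 4 reached that range. The part of the tag in SMC3 differences between mutants, including SMC3 missing at single sites, was not tested.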
